A study of Mus musculus with 8 samples.

Results

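A set of 10 genes of the NRF2 antioxidant response and of iron handling was followed in unstimulated macrophages with and without gasdermin D, the pore-forming protein of pyroptosis. They were taken by gene symbol from the count table, which lists 54532 genes, and all 10 were found and passed the filter on low counts. They are Nfe2l2, Hmox1, Nqo1, Gclm, Txnrd1, Srxn1, Slc7a11, Fth1, Slc40a1 and Tfrc. The study examined gasdermin D in a mouse model of allergic asthma and sequenced RNA from bone marrow-derived macrophages to compare the transcriptomes of both genotypes. Such cells are obtained by culturing marrow with macrophage colony-stimulating factor. The 4 WT and 4 Gsdmd-/- libraries came from cells differentiated for 6 days, and their treatment is given as none. The marrow donors are given as C57BL/6J females of 6 to 8 weeks for the cultures in general. WT mice were bought from a supplier and Gsdmd-/- mice were a gift from another laboratory kept in the study's facility, so genotype and mouse source cannot be told apart. Whether the libraries of a genotype came from different mice is not stated, and p-values therefore measure only the spread between these samples, which may be technical.

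NRF2, the transcription factor encoded by Nfe2l2, is held at a low level by KEAP1 and is released when oxidants or electrophiles modify KEAP1. With small MAF proteins it then binds antioxidant response elements and turns on genes for glutathione synthesis, thioredoxin reduction, quinone detoxification and heme breakdown, a set that BACH1 represses. Iron handling is controlled at a further level. When iron is scarce, iron regulatory proteins bind hairpins in mRNA, block translation of ferritin and ferroportin and stabilise the transferrin receptor mRNA. Macrophages are a main site of iron recycling, since they break down the heme of engulfed red cells and export the iron.

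The hairpins are shown because they mark 3 of the iron genes, those for storage, export and uptake of transferrin-bound iron. A search was made in the annotated UTRs of protein-coding transcripts (GENCODE M21, build GRCm38) for a bulged C, a stem of 5 bases, the loop CAGTGN with A, C or T as its last base, and 5 pairing bases. It found 1 match in the 5′ UTR of Fth1 at chr19:9982734-9982758 on the plus strand and 1 in the 5′ UTR of Slc40a1 at chr1:45925467-45925491 on the minus strand. The 3′ UTR of Tfrc held 4 matches on the plus strand, at chr16:32631221-32631245, chr16:32631600-32631624, chr16:32631665-32631689 and chr16:32631712-32631736. The match of Ftl1, the light ferritin chain, is shown for comparison (chr7:45459781-45459805, minus strand). Capitals mark the loop.
Fth1: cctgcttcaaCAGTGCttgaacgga
Ftl1: cttgcttcaaCAGTGTttgaacgga
Slc40a1: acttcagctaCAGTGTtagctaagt
Tfrc match A: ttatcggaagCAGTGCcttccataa
Tfrc match B: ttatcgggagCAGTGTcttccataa
Tfrc match C: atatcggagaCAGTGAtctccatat
Tfrc match D: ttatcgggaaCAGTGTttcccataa

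A match was present in 3 of the 10 genes, and in 123 of 21901 protein-coding genes (0.562%). A match describes the letters and the possible pairing and not a measured binding site.

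Antioxidant response elements were searched as TGACNNNGC and as TGAGNNNGC on both strands, in RefSeq promoter windows (build GRCm38.p6) from 250 bases before to 50 bases after each gene start. Windows were matched for 8 of the 10 genes, 12 windows in all, and Hmox1 and Slc40a1 had no entry in that table. TGACNNNGC was found for 4 of the 8 genes (Nfe2l2, Srxn1, Gclm and Txnrd1), against 14% of all 27025 genes with a window, or 12.4% of 32851 windows. The Srxn1 match of this form begins 28 bases after the start and is not among the sites shown. TGAGNNNGC was found for Srxn1, at 2 places, and for Slc7a11, against 19.8% of all genes or 17.6% of all windows. Sites upstream of the start are shown 5′ to 3′ on the strand of the motif, with the motif in capitals. They lie at chr2:75704884-75704913 for Nfe2l2, chr3:122245412-122245442 for Gclm, chr10:82859103-82859133 for Txnrd1, chr3:50443691-50443721 for Slc7a11, and chr2:152105355-152105385 and chr2:152105468-152105498 for Srxn1. The Nfe2l2 site and Srxn1 site B read on the strand of the gene, and the others on the opposite strand.
Nfe2l2: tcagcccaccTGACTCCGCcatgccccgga
Gclm: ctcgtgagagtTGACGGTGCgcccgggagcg
Txnrd1: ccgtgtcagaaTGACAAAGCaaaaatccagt
Slc7a11: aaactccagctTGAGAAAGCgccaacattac
Srxn1 site A: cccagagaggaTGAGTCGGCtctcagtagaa
Srxn1 site B: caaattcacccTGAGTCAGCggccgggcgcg

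Srxn1 site B begins 45 bases before the start and overlaps an AP-1 motif (TGANTCA). That motif was found in Srxn1 alone among the matched genes, against 8.97% of all genes or 7.81% of all windows. Either form of the element was present in 5 of the 8 matched genes, against 30.8% of all genes, and in 5 of their 12 windows, against 27.8% of all windows. No match in these windows says only that the letters are not there, and nothing about elements farther away.

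Reads were counted per gene, and total counts lay between 14935114 and 16794810 per library. Values are counts scaled to a common library size by TMM (CPM), and levels of different genes are compared as CPM per kilobase of exon. Gsdmd, the deleted gene, had 63.5 to 95.5 CPM in the WT libraries and 14.4 to 18.2 CPM in the Gsdmd-/- libraries. All 8 macrophage markers were detected and summed to 15340 to 23464 CPM in WT and 19408 to 23404 CPM in Gsdmd-/- libraries, most of it from Lyz2. WT 2 and WT 3 had the 2 lowest sums, 15340 and 17239 CPM, and were the 2 lowest libraries for Lyz2, Cd68, Itgam and Fcgr1 and the 2 highest for Adgre1 and Mertk. Cd68 had 414 and 424 CPM there and 621 to 849 CPM elsewhere, and Fcgr1 had 7.09 and 6.66 CPM against 17.8 to 40.7 CPM. The genotypes overlapped for 7 of the 8 markers, the exception being Adgre1 with 277 to 326 CPM in WT and 242 to 275 CPM in Gsdmd-/- libraries. The 5 dendritic cell markers, nearly all of it Itgax, summed to 2210 to 2349 CPM in WT and 1656 to 2082 CPM in Gsdmd-/- libraries, also without overlap. The 8 erythroid markers, the source most relevant to iron genes, summed to at most 0.855 CPM, and 3 of them were at 0 in every library. WT 2 and WT 3 stood apart from the other 6 libraries on the first principal component, which held 43.6% of the variance (scores of 45.4 and 38.8 against -25.9 to -7.19). The 4 monocyte markers summed to 4.89 and 4.03 CPM in those libraries, to 47 and 44.2 CPM in WT 1 and WT 4, and to 20.4 to 27.1 CPM in the Gsdmd-/- libraries. The 4 mast cell markers summed to 12 and 10.5 CPM in WT 2 and WT 3 and to 46.2 to 71.8 CPM elsewhere, and Kit gave most of that sum. The mitochondrial share of counts was 2.52% and 2.53% in WT 2 and WT 3 and 1.67% to 2.34% elsewhere. Fold changes of the 10 genes, of the partners and of the lists are therefore given with and without WT 2 and WT 3, and the part of these markers and of the mitochondrial share in them was not tested. In bulk RNA, fewer cells of a type and less RNA per cell cannot be told apart.

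All 10 genes were expressed, over a range from 6188 to 5.82 CPM per kilobase. Fth1, the heavy ferritin chain that stores iron, had 6188 CPM per kilobase as the mean of 8 libraries, held 1.6% to 2.72% of all counts and ranked 3 among all genes tested. Hmox1, heme oxygenase 1, which breaks heme into biliverdin, carbon monoxide and iron, had 282. Srxn1 followed with 114, Nfe2l2 with 85, Txnrd1 with 60.5, Gclm with 48.6, Nqo1 with 40.3, Slc7a11 with 17.3, Slc40a1 with 6.94 and Tfrc with 5.82 CPM per kilobase. The ranges over libraries overlapped between the neighbours Srxn1 and Nfe2l2, Txnrd1 and Gclm, Gclm and Nqo1, and Slc40a1 and Tfrc. Within libraries, Gclm exceeded Nqo1 in 6 of 8 and Slc40a1 exceeded Tfrc in 6 of 8, while every other neighbouring pair kept its order in all 8. The iron store gene thus stood far above the genes for iron export and for transferrin-bound iron uptake, which were the lowest of the 10.

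**Figure D1:**
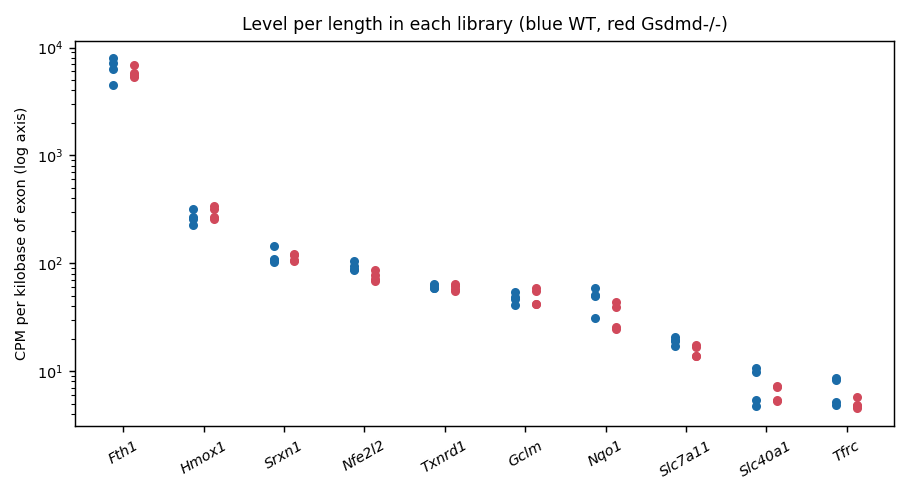
Level of each gene in CPM per kilobase of exon, on a log axis, with genes ordered by their mean over 8 libraries and 1 point per library (blue WT, red Gsdmd-/-). Fth1 lies at 4536 to 7956, Hmox1 at 226 to 342, and Slc40a1 and Tfrc lie at 10.7 or less.

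The comparison of the genotypes asked whether loss of gasdermin D went with a different basal level of these genes. None of the 10 genes passed an adjusted p of 0.05 (edgeR quasi-likelihood test, Benjamini-Hochberg adjustment over 12911 genes), against 0.356% of all genes tested, and none did by DESeq2, the edgeR exact test or limma voom. With sample quality weights in voom, 3 passed, in a fit that called 13.9% of all genes. At an unadjusted p under 0.05, 4 were lower in Gsdmd-/- macrophages (Nfe2l2, Slc7a11, Nqo1 and Tfrc), where the background is 7.24% of all genes, and none was higher, where the background is 4.73%. At the study's cutoff, an unadjusted p under 0.05 and log2 fold changes of 0.5 or more in size, only Nqo1 was counted as lower, against 3.28% of all genes lower and 1.54% higher. No gene separated the genotypes without overlap, against 7.6% of all genes. The fold change was below 0 for 8 genes and above 0 for Hmox1 and Gclm, with a median log2 fold change of -0.21 over the 10 genes and -0.0068 over all genes. Without WT 2 and WT 3 the median over the 10 genes was -0.03, with 6 below 0. Only Nfe2l2 was then at an unadjusted p under 0.05, against 6.81% of all genes lower in that fit.

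**Figure D2:**
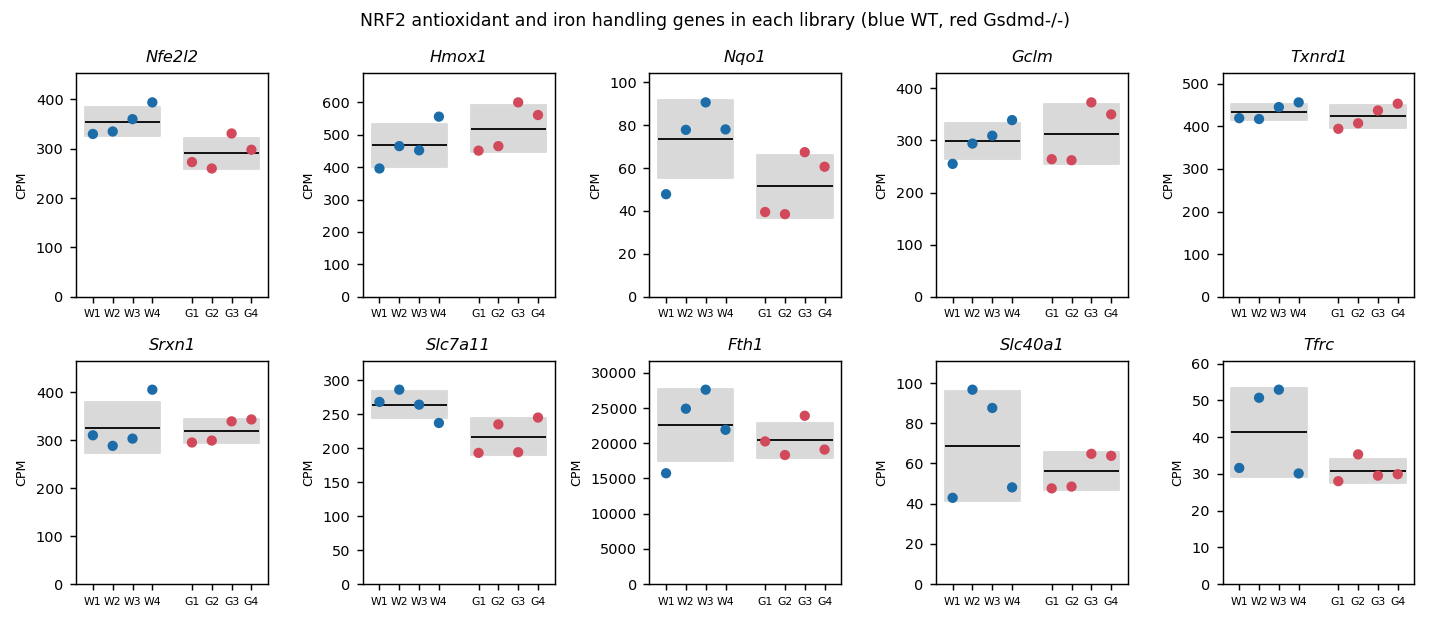
CPM of each gene in WT libraries 1 to 4 (W1 to W4, blue) and Gsdmd-/- libraries 1 to 4 (G1 to G4, red), with the mean as a line and 1 SD as a grey band, each axis starting at 0. For Fth1, Slc40a1 and Tfrc, W2 and W3 are the highest 2 of the 8 libraries.

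Nfe2l2, the gene of NRF2 itself (chr2:75675513-75704641, minus strand), had 330, 335, 360 and 394 CPM in WT 1 to 4. In Gsdmd-/- 1 to 4 it had 273, 260, 331 and 298 CPM. All WT libraries but WT 1 were above every Gsdmd-/- library, and WT 1 lay just below Gsdmd-/- 3. The means were 355 ± 29.2 and 291 ± 31.3 CPM (SD, n = 4 each). This is a log2 fold change of -0.29 (95% interval -0.51 to -0.06, adjusted p = 0.306, edgeR). Without WT 2 and WT 3 it was -0.32 (adjusted p = 0.271, edgeR), so this difference did not rest on those libraries.

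Among the targets, Nqo1 had the largest fold change of the 10 genes when all 8 libraries were used. It encodes a quinone reductase often read as a measure of NRF2 activity (chr8:107388225-107403206, minus strand). WT 1 to 4 had 47.8, 77.8, 90.6 and 78.0 CPM, and Gsdmd-/- 1 to 4 had 39.5, 38.5, 67.4 and 60.6 CPM. WT 1 lay below Gsdmd-/- 3 and 4, and the other WT libraries lay above all Gsdmd-/- libraries. The mean was 73.6 ± 18.2 CPM in WT and 51.5 ± 14.7 CPM in Gsdmd-/- (n = 4 each), which is 70% of WT. The log2 fold change was -0.51 (95% interval -1.02 to -0.01, adjusted p = 0.402, edgeR) and -0.29 without WT 2 and WT 3 (adjusted p = 0.737). Without those libraries the log2 fold changes of Nfe2l2 (-0.32) and Slc40a1 (0.30) were larger in size. Nqo1 no longer met the study's cutoff when WT 2, WT 3, WT 4, Gsdmd-/- 1 or Gsdmd-/- 2 was left out.

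Slc7a11 encodes the light chain of the cystine-glutamate exchanger that supplies cysteine for glutathione, and loss of its activity sensitises cells to ferroptosis (chr3:49892526-50443614, minus strand). It had 268, 286, 264 and 237 CPM in WT 1 to 4 and 193, 235, 194 and 245 CPM in Gsdmd-/- 1 to 4. Only WT 4 reached into the Gsdmd-/- range, where Gsdmd-/- 4 was above it. The means were 264 ± 20 and 217 ± 27.1 CPM (n = 4 each). Its log2 fold change was -0.28 (95% interval -0.52 to -0.05, adjusted p = 0.331, edgeR) and of -0.23 without WT 2 and WT 3. The ratio per length of Slc7a11 to Slc3a2, the heavy chain of the same exchanger, was 0.18 ± 0.0269 in WT and 0.157 ± 0.0291 in Gsdmd-/- libraries (exact permutation test, two-sided, p = 0.286).

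Gclm, the modifier subunit of glutamate-cysteine ligase, which makes the first step of glutathione synthesis (chr3:122245557-122270732, plus strand), gave no such order. It had 255, 294, 309 and 339 CPM in WT 1 to 4 and 264, 262, 373 and 350 CPM in Gsdmd-/- 1 to 4. The WT range lay almost wholly within that of the Gsdmd-/- libraries, with a log2 fold change of 0.06 (95% interval -0.25 to 0.37, adjusted p = 0.897, edgeR), and was 0.07 without WT 2 and WT 3. Its sign turned without WT 1 or without Gsdmd-/- 3. Gclm shares 296 exon bases with Gm17494 on the opposite strand, which summed to 41 counts in the WT group and 148 in the knockout group and passed the adjusted p. The kit is not described as marking strand, so reads on those bases cannot be assigned to either gene, although the 148 counts compare with 20057 for Gclm. Per length, Gclm exceeded Gclc, the catalytic subunit, 3.1 ± 0.426 times in WT and 3.6 ± 0.497 times in Gsdmd-/- libraries (exact permutation test, two-sided, p = 0.2).

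Txnrd1 encodes cytosolic thioredoxin reductase (chr10:82833951-82897712, plus strand) and was the steadiest of the 10 genes. It had 419, 417, 445 and 456 CPM in WT 1 to 4 and 394, 407, 437 and 453 CPM in Gsdmd-/- 1 to 4. Its coefficient of variation was 4.39% in WT and 6.35% in Gsdmd-/- libraries, against medians over all genes of 16.5% and 11%. The log2 fold change of -0.04 had a 95% interval of -0.22 to 0.14, the narrowest of the 10, which is 85.8% to 110% of WT. It was -0.05 without WT 2 and WT 3.

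Srxn1, sulfiredoxin, which repairs overoxidised peroxiredoxins (chr2:152105516-152111376, plus strand), had 310, 288, 303 and 405 CPM in WT 1 to 4. In Gsdmd-/- 1 to 4 it had 295, 299, 339 and 343 CPM. WT 4 was the highest and WT 2 the lowest library, so the WT libraries enclosed all the Gsdmd-/- libraries. Its log2 fold change was -0.03 (95% interval -0.30 to 0.23, adjusted p = 0.94, edgeR), and it was -0.17 without WT 2 and WT 3. Its sign turned without WT 4 or without Gsdmd-/- 1.

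Hmox1 (chr8:75093621-75100589, plus strand) links the antioxidant and the iron genes. It had 396, 465, 452 and 556 CPM in WT 1 to 4 and 451, 465, 600 and 561 CPM in Gsdmd-/- 1 to 4. Gsdmd-/- 3 and 4 were the 2 highest libraries, and the other Gsdmd-/- libraries lay within the WT range. The means were 467 ± 66.1 and 519 ± 72.5 CPM (n = 4 each). Hmox1 had a log2 fold change of 0.15 (95% interval -0.14 to 0.44, adjusted p = 0.695, edgeR) and of 0.12 without WT 2 and WT 3. Leaving out Gsdmd-/- 3 or WT 1 gave 0.08, and leaving out WT 4 gave 0.25.

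For Fth1, Slc40a1 and Tfrc, WT 2 and WT 3 were the 2 highest libraries, an order held by 17.9% of all genes tested and not by Ftl1, which was highest in Gsdmd-/- 3. Fth1 (chr19:9980598-9985098, plus strand) had 15736, 24900, 27601 and 21904 CPM in WT 1 to 4 and 20256, 18322, 23900 and 19097 CPM in Gsdmd-/- 1 to 4. WT held both the lowest and the highest library. The log2 fold change was -0.14 (95% interval -0.52 to 0.23, adjusted p = 0.779, edgeR), and it turned to 0.12 without WT 2 and WT 3. The processed copies Fth-ps2 and Fth-ps3 held at most 7 counts in a library, so few reads were assigned to them. The ratio per length of Fth1 to Ftl1 was 1.41, 1.86, 1.86 and 1.53 in WT 1 to 4 and between 1.41 and 1.56 in the Gsdmd-/- libraries (exact permutation test, two-sided, p = 0.314). Ftl1 has a near-identical copy, Ftl1-ps1, to which 10415 counts in WT and 11456 in the knockout group were assigned, so its level is uncertain.

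Slc40a1, which encodes ferroportin, the iron exporter (chr1:45908068-45926523, minus strand), had 42.9, 96.7, 87.6 and 48.1 CPM in WT 1 to 4. In Gsdmd-/- 1 to 4 it had 47.6, 48.5, 64.8 and 63.8 CPM. WT 2 and WT 3 were above every Gsdmd-/- library, and WT 1 and WT 4 were close to the lower end of the Gsdmd-/- range. The coefficient of variation was 39.6% in WT and 16.7% in Gsdmd-/- libraries. The log2 fold change was -0.29 (95% interval -0.85 to 0.26, adjusted p = 0.697, edgeR) and turned to 0.30 without WT 2 and WT 3 (adjusted p = 0.447).

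Tfrc, the transferrin receptor (chr16:32608920-32632794, plus strand), had 31.6, 50.7, 52.9 and 30.1 CPM in WT 1 to 4 and 28.0, 35.3, 29.5 and 29.9 CPM in Gsdmd-/- 1 to 4. WT 2 and WT 3 again stood above all others, and WT 1 and WT 4 lay within the Gsdmd-/- range. The log2 fold change was -0.43 (95% interval -0.85 to -0.01, adjusted p = 0.401, edgeR) with all libraries and -0.01 without WT 2 and WT 3 (adjusted p = 0.981). Tfrc is also high in dividing cells, and the 7 proliferation markers summed to 296, 392, 402 and 318 CPM in WT 1 to 4 and to 323 to 393 CPM in the Gsdmd-/- libraries, most of it from Pcna. WT 2 and WT 3 were the 2 highest libraries for 4 of the 7, Mki67, Top2a, Mcm2 and Mcm5. Mki67 had 54 and 44.4 CPM in WT 2 and WT 3 and 15.8 to 26.3 CPM elsewhere, and Top2a had 38.9 and 37.6 CPM against 20.9 to 31. Their part in the Tfrc level was not tested.

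**Figure D3:**
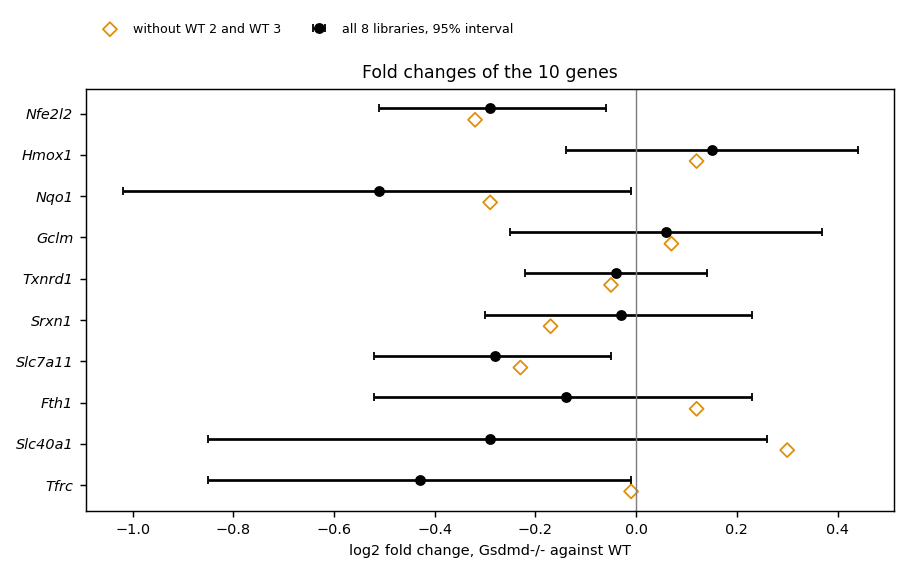
Log2 fold change of each gene, Gsdmd-/- against WT, with all 8 libraries (black, bars are 95% intervals) and without WT 2 and WT 3 (open diamonds). Nfe2l2 stays near -0.3, Tfrc moves from -0.43 to -0.01, and Fth1 and Slc40a1 change sign.

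The genes did not share a single order of the libraries. WT 2 and WT 3 were both above the other 6 libraries for 3 of the 10 genes (Fth1, Slc40a1 and Tfrc). Gsdmd-/- 3 and 4 were both above Gsdmd-/- 1 and 2 for 7 of the 10 genes, the exceptions being Slc7a11, Fth1 and Tfrc, and the same order was held by 17.5% of all genes and 36.8% of the 152 other pathway genes tested. These orders were noticed in the values and carry no test. Likeness of pattern was measured as Pearson's r of log2 CPM over the 8 libraries, and it is given as a description without a test. The gene most like Nfe2l2 was Tmem173, the cytosolic DNA signal adaptor STING (r = 0.994), and the gene most like Nqo1 was Cited4 (r = 0.988). Fth1 was most like Atp1b3 (r = 0.991), and the third gene for Txnrd1 was G6pdx, which encodes the first enzyme of the pentose phosphate pathway (r = 0.912). Tfrc was most like Tnks1bp1 (r = 0.985), and that value was 0.856 without WT 2 and WT 3.

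Of the regulators of NRF2, Keap1, the inhibitor, had 53.4, 51.8, 53.5 and 55.7 CPM in WT 1 to 4 and 46.0, 40.2, 41.7 and 46.2 CPM in Gsdmd-/- 1 to 4. The genotypes did not overlap for Keap1, with a log2 fold change of -0.30 and of -0.33 without WT 2 and WT 3, but its adjusted p was 0.184 and 0.170 in those fits (edgeR). The repressor Bach1 had 97.6 ± 6.45 CPM in WT and 98.3 ± 6.93 CPM in Gsdmd-/- libraries (n = 4 each), a log2 fold change of 0.01 and of 0.04 without WT 2 and WT 3. Per length, Nfe2l2 exceeded Keap1 8.17 ± 0.468 times in WT and 8.29 ± 1.07 times in Gsdmd-/- libraries (exact permutation test, two-sided, p = 0.943). Nfe2l2 exceeded Bach1 5.96 ± 0.912 times in WT and 4.85 ± 0.771 times in Gsdmd-/- libraries (exact permutation test, two-sided, p = 0.114). Over the 5 ratios compared, the adjusted p was 0.943 for Nfe2l2 to Keap1 and 0.393 for each of the others, and the smallest p the test allows is 0.0286. The mean ratio per length of WT 1 and WT 4 alone was 1.47 for Fth1 to Ftl1, 3.28 for Gclm to Gclc, 0.176 for Slc7a11 to Slc3a2, 8.2 for Nfe2l2 to Keap1 and 6.24 for Nfe2l2 to Bach1.

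The other genes of these pathways were taken from 9 lists with 188 genes, of which 185 were in the table and 152 were tested. None passed the adjusted p by the quasi-likelihood test of edgeR, while 2 did by DESeq2 and 1 by the edgeR exact test, in fits that called 2.26% and 1.89% of all genes. The quasi-likelihood test without WT 2 and WT 3 called 3, Alox5 lower and Mgst1 and Sesn1 higher, against 1.23% of all genes, and voom with sample quality weights called 23, against 13.9%. With all libraries and at an unadjusted p under 0.05, 10 were higher (6.58%, against 4.73% of all genes) and 9 lower (5.92%, against 7.24%), and the genotypes did not overlap for 10 (6.58%, against 7.6%). These shares are near those of all genes. Without WT 2 and WT 3 the same counts were 23 higher (15.1%, against 6.25% of all genes) and 10 lower (6.58%, against 6.81%), so the count of higher genes depended on those libraries. Flvcr1, a heme exporter of the plasma membrane and chosen here after its values were seen, had the lowest adjusted p of the lists (0.0724, edgeR). It had 80.8, 79.6, 75.8 and 75.3 CPM in WT 1 to 4 and 101, 117, 95.8 and 108 CPM in Gsdmd-/- 1 to 4. The genotypes were well apart, with a log2 fold change of 0.44 and of 0.43 without WT 2 and WT 3.

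At the study's cutoff and with all libraries, 1 of the 152 genes was higher (0.658%, against 1.54% of all genes). A further 3 were lower (1.97%, against 3.28%). In that fit the lists held no larger share than all genes. Chac1, which degrades glutathione, was higher at 2.74 ± 0.5 against 1.6 ± 0.232 CPM (n = 4 each) and a log2 fold change of 0.77 (adjusted p = 0.228, edgeR). Gss, the second enzyme of glutathione synthesis, was lower at 23.4 ± 5.29 against 35.9 ± 10.7 CPM (n = 4 each), a log2 fold change of -0.62 (adjusted p = 0.327, edgeR). Ggt5 and Trf, which encodes transferrin, were also lower, with log2 fold changes of -1.31 and -0.73 (adjusted p = 0.25 and 0.331, edgeR). Ggt5 was close to the floor, with only 6 to 32 counts in a library. Like Slc40a1 and Tfrc, all 3 lower genes were highest in WT 2 and WT 3. There Gss had 38.5 and 47.6 CPM against 18.8 to 35.4 CPM in the other libraries. Ggt5 had 1.47 and 1.95 CPM against 0.355 to 0.913 CPM, and Trf had 6.97 and 7.02 CPM against 2.78 to 4.69 CPM. Without WT 2 and WT 3 the log2 fold change was 0.60 for Chac1, -0.29 for Gss, -0.73 for Ggt5 and -0.24 for Trf. In that fit 10 pathway genes met the cutoff, against 6.21% of all genes. They include Hao1, which was not tested with all libraries.

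**Figure D4:**
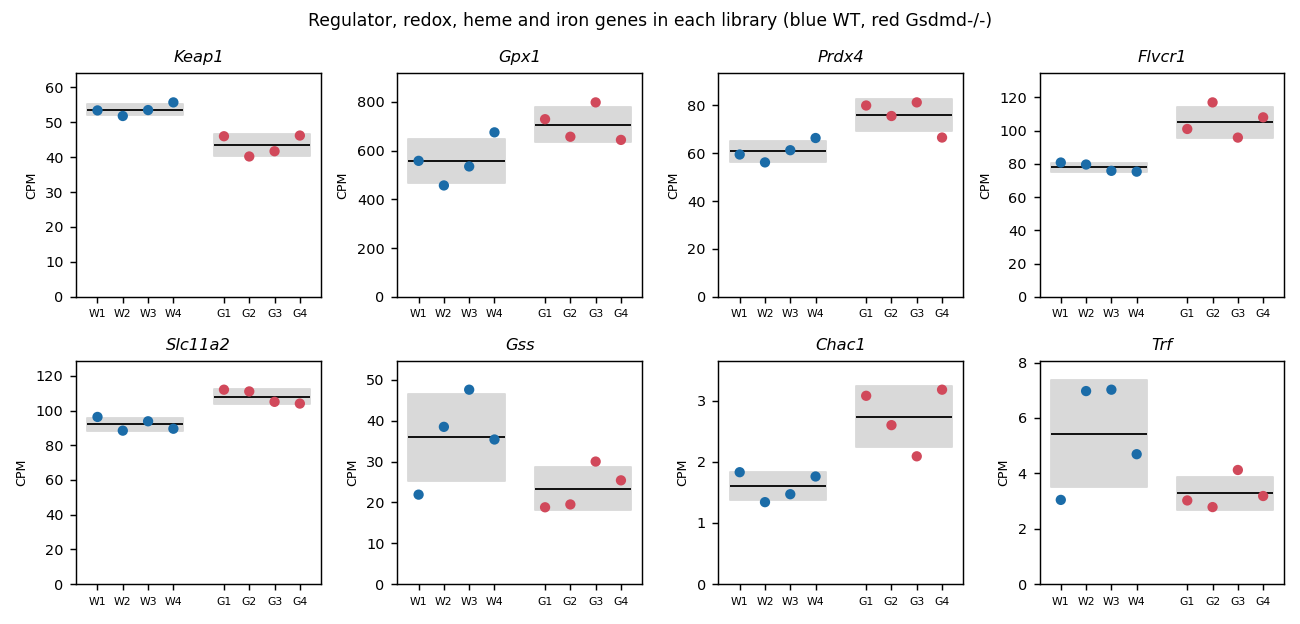
CPM in WT libraries 1 to 4 (W1 to W4, blue) and Gsdmd-/- libraries 1 to 4 (G1 to G4, red) of 8 regulator, redox, heme and iron genes at an unadjusted p under 0.05, with the mean as a line and 1 SD as a grey band. Keap1, Prdx4, Flvcr1, Slc11a2 and Chac1 do not overlap between genotypes, while Gpx1, Gss and Trf do.

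The counts by role are small and are to be read against the 4.73% of all genes that were higher and the 7.24% that were lower at an unadjusted p under 0.05. For the counts without WT 2 and WT 3 these shares were 6.25% and 6.81%. The 16 tested regulators and partners of NRF2 had a median log2 fold change of -0.04, with 2 at an unadjusted p under 0.05, Keap1 and Nfe2l1, both lower. Without WT 2 and WT 3 the median was -0.13, with 3 lower. The 23 genes of glutathione synthesis and use had 2 higher (Chac1 and Gpx1) and 3 lower (Gss, Ggt5 and Abcc1) at that p, which became 5 higher and 1 lower without WT 2 and WT 3. Of the 18 thioredoxin and peroxiredoxin genes 14 had a fold change above 0, against 48.5% of all genes, with a median of 0.13 and with Prdx4 and Txnip at an unadjusted p under 0.05. Without WT 2 and WT 3, 12 were above 0 with a median of 0.04, and 5 were higher at that p. The 22 genes of NADPH supply and of quinone or carbonyl detoxification, the list closest to Nqo1 in function, had a median of 0.01 and only Trim16 at that p, higher, and without WT 2 and WT 3 a median of 0.11 with 3 higher and 1 lower. The 11 superoxide and hydrogen peroxide genes had a median of -0.04, with Ucp2 lower, and without WT 2 and WT 3 a median of -0.08 with 2 lower.

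Among iron genes, where the counts without WT 2 and WT 3 are again to be read against 6.25% of all genes higher and 6.81% lower, the 21 genes of heme uptake, breakdown and synthesis had a median of 0.05, with Flvcr1 and Fech higher at an unadjusted p under 0.05, and without WT 2 and WT 3 the same median with 4 higher. The 17 genes of iron uptake, storage and export had a median of 0.03, with Slc11a2 higher and Trf and Smad7 lower, and without WT 2 and WT 3 a median of 0.06 with 5 higher and 2 lower. Slc11a2, the DMT1 importer of ferrous iron, had 92 ± 3.68 CPM in WT and 108 ± 4.33 CPM in Gsdmd-/- libraries (n = 4 each) and a log2 fold change of 0.23 (adjusted p = 0.258, edgeR), or 0.22 without WT 2 and WT 3. The iron regulatory proteins that bind the hairpins were close in both genotypes, with 101 ± 3.48 and 99 ± 6.54 CPM for Aco1 and 58.1 ± 5.24 and 63.6 ± 3.97 CPM for Ireb2 (n = 4 each). Their log2 fold changes were -0.03 and 0.13, and -0.02 and 0.06 without WT 2 and WT 3. The 11 genes of the list that holds them, with other mRNAs known for such hairpins, had a median of 0.03 and 1 higher at that p, Slc11a2, and without WT 2 and WT 3 a median of 0.06 and 2 higher. The 18 ferroptosis genes had a median of 0.03, with Slc1a5 and Por higher and Lpcat3 lower at that p, and without WT 2 and WT 3 a median of 0.04 with none higher and 1 lower.

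**Figure D5:**
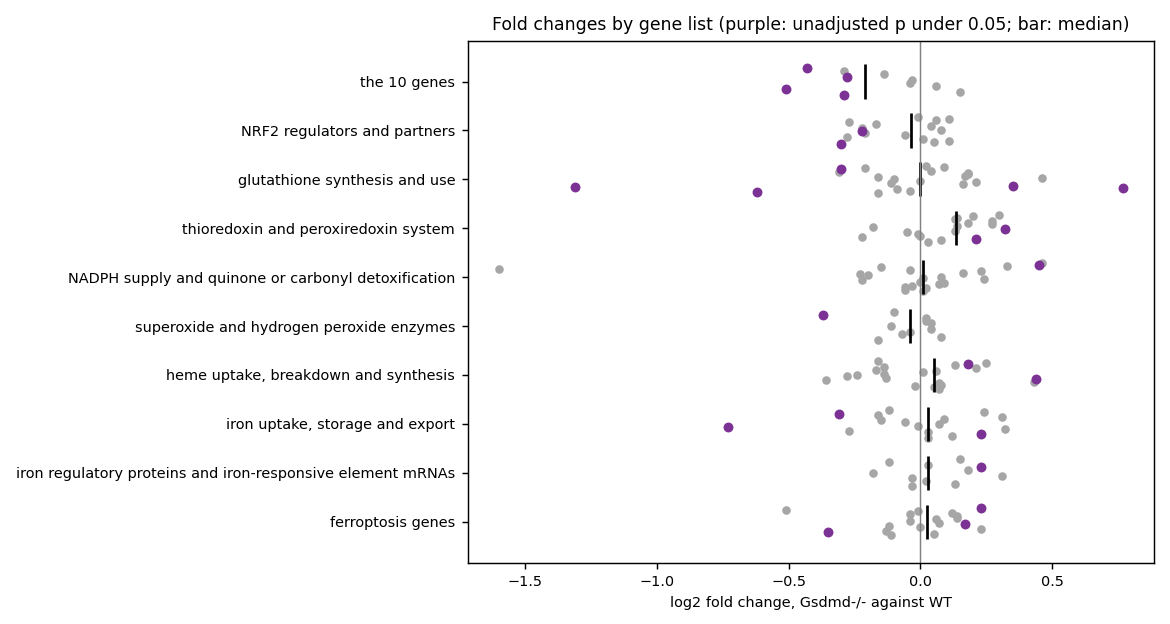
Log2 fold change, Gsdmd-/- against WT, of the 10 genes and of the tested genes of 9 lists, with purple points at an unadjusted p under 0.05 and a bar at the median of each list. The median is -0.21 for the 10 genes and lies between -0.04 and 0.13 for the lists.

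The most abundant genes of the lists set the scale. Prdx1, the main cytosolic peroxiredoxin, had 1290 CPM per kilobase, Akr1a1 996 and Cyba, a subunit of the phagocyte oxidase, 1153. Gstm1 had 503, Gpx1 438 and Sqstm1, the autophagy receptor that binds KEAP1, 161 CPM per kilobase. Ftl1 had 3910, the listed level nearest to that of Fth1, and Slc48a1, which carries heme out of the lysosome, had 267, close to the 282 of Hmox1.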

How the data were processed

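Libraries were prepared from RNA with a TruSeq kit, and the authors deposited unnormalized read counts per gene for 8 libraries. The build is mm10 per the labels, while the aligner, counter and annotation are not given in the sources used here. The paper names limma and edgeR for differential expression. Positions and exon lengths came from GENCODE M21. After the filterByExpr filter and TMM scaling, 12911 of 54532 genes were tested with genotype as the only term by the two-sided quasi-likelihood test of edgeR 4.0.16 (R 4.3.3). Log2 CPM used a prior count of 2. Alternatives were limma 3.58.1 (voom, with and without sample quality weights), DESeq2 1.42.0, the edgeR exact test, other normalizations and filters, leaving out libraries and a replicate block. Total counts of 14935114 to 16794810 put 3 counts at 0.179 to 0.201 CPM. The intervals on log2 fold changes come from the quasi-likelihood fit. Like its p-values, they rest on the spread between these libraries, which may be technical. All 10 members were described. Other genes were named at the study's cutoff (up to 3 per list and direction), for their level (top 3 of a list) or as partner or inhibitor of a member, and any gene outside that rule was chosen after its values were seen. The members and lists were chosen with earlier results of these data known.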

Additional observations from a re-analysis of the deposited data

How the results depend on the processing

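Of the 10 genes, 0 passed the adjusted p in every alternative but limma voom with sample quality weights, which gave 3 (Nfe2l2, Nqo1 and Tfrc, adjusted p = 0.0307, 0.0294 and 0.0192, against 0.0307 to 0.602, 0.0294 to 0.737 and 0.0192 to 0.981 over all alternatives). That setting called 13.9% of all genes and gave WT 1 and WT 4 the lowest weights (0.378 and 0.258) and WT 2 and WT 3 weights of 1.28 and 2.01. It counted 3 genes at the study's cutoff (1 in the main result), against 11.8% of all genes, while a log2 fold change of at least 1, upper-quartile normalization, no filter and excluding WT 2 and WT 3 counted 0, the last 3 against 4.76%, 4.48% and 6.21% of all genes. With 1 library left out, 0 (WT 2, WT 3 or Gsdmd-/- 1) to 2 (WT 1, Nqo1 and Tfrc) of the 10 genes met the cutoff, against 3.59% to 7.7% of all genes and 6.71% without WT 1. Without WT 4 or Gsdmd-/- 2 the gene counted was Tfrc and not Nqo1. In the same settings 0 to 2 (WT 1, Nfe2l2 and Nqo1) did not overlap, against 9.17% to 17.3% of all genes and 13% without WT 1. RLE normalization left 1 gene (Nfe2l2) without overlap, against 7.54% of all genes. Gclm turned to -0.008 and Srxn1 to 0.051 with quality weights. With 1 library left out, their log2 fold changes ran from -0.033 to 0.137 for Gclm and from -0.094 to 0.090 for Srxn1. Fth1 turned to 0.115 and Slc40a1 to 0.300 without WT 2 and WT 3. The other 6 genes kept their sign in all 18 alternatives. Of the other pathway genes, 0 passed the adjusted p in the main result, 2 with DESeq2 (Flvcr1 and Keap1), 1 with the edgeR exact test, 1 with no filter, 23 with quality weights and 3 (Alox5, Mgst1 and Sesn1) without WT 2 and WT 3, in fits that called 2.26%, 1.89%, 0.406%, 13.9% and 1.23% of all genes. At the cutoff, 4 became 1 with a log2 fold change of at least 1, 18 with quality weights, 8 with no filter, 10 without WT 2 and WT 3 and 2 (Gsdmd-/- 1 or 2) to 11 (WT 4) with 1 library left out. Over all genes the cutoff took 11.8% with quality weights, 4.48% with no filter, 6.21% without WT 2 and WT 3 and 7.7% without WT 4. The causes were not tested. Over all genes, 46 calls became 292 with DESeq2, 244 with the exact test, 163 without WT 2 and WT 3, 1792 with quality weights, 103 with no filter and 14 to 109 with 1 library left out. Same-numbered libraries had correlations of 0.0268, 0.182, 0.0412 and -0.201. These values show no clear pairing by number, but with 4 libraries a genotype they cannot exclude one. With the replicate block 27 genes passed (0.209%) and 0 of the 10. With 4 libraries a genotype, the 95% intervals of the 10 genes reached ± 0.56 on the log2 scale.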
